A study of Homo sapiens with 6 samples.

Results

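The heat shock transcription factors and the proteins that restrain or modify them were followed here at the level of their own RNA in HEK293 cells, a human embryonic kidney line. The 8 genes were HSF1, HSF2 and HSF4, which code for heat shock factors, HSBP1 and HSF2BP, which code for proteins that bind them, SIRT1, which codes for a deacetylase, and EP300 and CREBBP, which code for acetyltransferases. They were chosen by symbol, and 8 of the 117001 loci in the authors' merged table and 8 of the 24177 genes in the assemblies held one. The samples were 3 control libraries and 3 heat shock libraries of total RNA depleted of ribosomal RNA. All cells were cultured at 37°C, heat shock was 30 minutes at 45°C in a tube set in a water bath, and the control cells were not treated. The comparison asks whether the RNA of these genes changed at this early time, and the labels do not name separate passages or days for the replicates, so that p-values measure only the spread between these libraries.

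In unstressed cells HSF1 is held in an inactive form by chaperones. On heating it forms trimers, enters a hyperphosphorylated state and binds heat shock elements, which are inverted repeats of a short unit, in front of the chaperone genes. HSBP1 binds the trimerization region of HSF1, SIRT1 removes an acetyl group that weakens DNA binding, and EP300 and CREBBP add acetyl groups to HSF1 and to histones. This control is known to act largely on the HSF1 protein, and the RNA measured here cannot show the phosphorylation, acetylation, location or DNA binding of a protein.

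Heat shock elements were looked for first, because they mark the genes that HSF1 is known to bind. The RefSeq promoters used (build GRCh38.p14, from 250 bases before to 50 bases after each start) held 9 entries for HSF2, HSF4, HSBP1, SIRT1, EP300 and CREBBP and 16 entries for the 12 heat shock genes used as targets of HSF1. HSF1 and HSF2BP had no entry. The searched patterns were GAANNTTC and TTCNNGAA for 2 units, and GAANNTTCNNGAA and TTCNNGAANNTTC for 3 units, in which the longer patterns contain the shorter ones and both strands are covered. None of the 9 promoters of the HSF genes and regulators held a match with 2 units, against 10 of the 16 target promoters and 13.5% of all 35116 promoters of this length. With 3 units there was a match in 5 target promoters and in 0.490% of all promoters. The matches in the 5 targets whose heat shock libraries all lay above every control on the per-base scale used later are printed here with 6 bases on each side where the promoter allows, with the matched bases in capitals and positions counted from 0 at the first transcribed base. HSP90AA1, HSPD1, HSPA6 and HSPB1 also held matches, with 3 units in HSP90AA1, HSPD1 and HSPA6, and these are not printed. The printed set was chosen by its RNA values, so it cannot link the elements to those values. For DNAJB1 the first 2 positions are counted from 1 RefSeq start and the last from another.
HSPA1A, position -106: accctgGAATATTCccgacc
HSPA1B, position -105: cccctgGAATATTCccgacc
DNAJB1, position -77: ggggcgGAAGGTTCtggagg
DNAJB1, position -47: gctctgGAAGCTTCcgccgg
DNAJB1, position 1: cggccaGAAGCTTCtagcat
HSPA8, position -230: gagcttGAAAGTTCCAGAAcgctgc
HSPA8, position -55: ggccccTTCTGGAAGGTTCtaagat
DNAJA1, position -198: gctccaGAAGATTCcacgag
DNAJA1, position 3: cgggcgGAACTTTCCAGAAcgctcg

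For comparison, the 250 bases before the start of HSBP1, the most abundant of the 8 genes, and of HSF2 held none of these patterns. A pattern that is absent from this window says only that these letters are not there.
HSBP1, chr16:83807728-83807977, plus strand: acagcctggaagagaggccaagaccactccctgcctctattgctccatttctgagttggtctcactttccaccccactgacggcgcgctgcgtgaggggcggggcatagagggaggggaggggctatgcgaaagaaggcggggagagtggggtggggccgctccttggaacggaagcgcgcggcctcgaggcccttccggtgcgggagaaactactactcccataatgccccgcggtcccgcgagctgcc
HSF2, chr6:122399301-122399550, plus strand: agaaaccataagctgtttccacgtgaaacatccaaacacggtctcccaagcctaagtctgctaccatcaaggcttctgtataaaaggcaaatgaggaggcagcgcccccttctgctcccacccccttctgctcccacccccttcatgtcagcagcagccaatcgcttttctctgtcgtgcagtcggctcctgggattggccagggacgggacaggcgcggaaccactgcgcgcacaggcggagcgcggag

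The libraries differed widely within the groups, and this bears on the values of each gene. FPKM (fragments scaled by transcript length and by the mapped fragments of the library) came from the assembly of each library, and the files give depth in relative terms alone: coverage divided by FPKM ran from 1 in the shallowest to 2.02 in the deepest library. The factor shared by the 1005 genes above 10 FPKM in every library was 0.937, 0.434 and 0.956 for the controls, by replicate number, and 2.13, 2.32 and 0.487 for the heat shock libraries. Heat shock replicate 3 was therefore close to control replicate 2 and apart from the other 2 heat shock libraries. Single-exon transcripts without a strand numbered 141632, 194489 and 45600 in the controls, against 17304, 30334 and 151889 in the heat shock libraries. VIM, CDH2, INA, NEFM and SALL2, which HEK293 cells are known to express, were above 1 FPKM in all 6 libraries, and PAX2 ranged from 0.320 to 4.26 FPKM. Of the markers of other cells, ALB, PTPRC and DCN stayed at or under 0.344 FPKM, while COL1A1, KRT5, CDH16, UMOD and AQP2 were above 1 FPKM in at least 1 library, and their part in the results was not tested. In bulk RNA, fewer cells and less RNA per cell cannot be told apart.

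None of the 8 genes passed the test for a change. On the summed FPKM as deposited, all 8 were tested, 0 were called (a call needed more than a 2-fold change with an adjusted p below 0.05; limma, Benjamini-Hochberg over 13142 genes), and 0.0228% of all genes tested were called. The median of the 8 log2 fold changes was 0.59, beside 0.45 over all genes tested, and 7 of the 8 were above 0. No gene of the 8 reached an unadjusted p under 0.05, which 2.05% of all genes did as higher and 1.7% as lower in the heat shock libraries. None had groups that did not overlap, a pattern that 3.77% of all genes showed as higher and 2.23% as lower.

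The sum of FPKM treats a short assembled piece of a gene like a full-length transcript. A second scale was therefore added after the values had been seen, in which the FPKM of each transcript was spread over the annotated exon bases it covers and divided by the exonic length of the gene and by a factor shared by 770 abundant genes. On this per-base FPKM over the common factor, 6 of the 8 genes stayed above the minimum of 1 and were tested, 0 were called, and 0% of the 11862 genes tested were called. The 6 log2 fold changes, taken on log2(value + 1), ran from -0.11 for EP300 to 0.09 for HSF2 with a median of -0.01, beside -0.14 over all genes. No gene of the 6 had an unadjusted p under 0.05, which 0.632% of all genes had as higher and 2.23% as lower, and none had groups that did not overlap, which held for 1.45% as higher and 5.4% as lower. Before division by the common factor, the 6 per-base log2 fold changes ran from 0.63 to 0.90 with a median of 0.72, beside 0.56 over all genes. Per-base values of single genes below are given after this division unless stated otherwise.

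**Figure D1:**
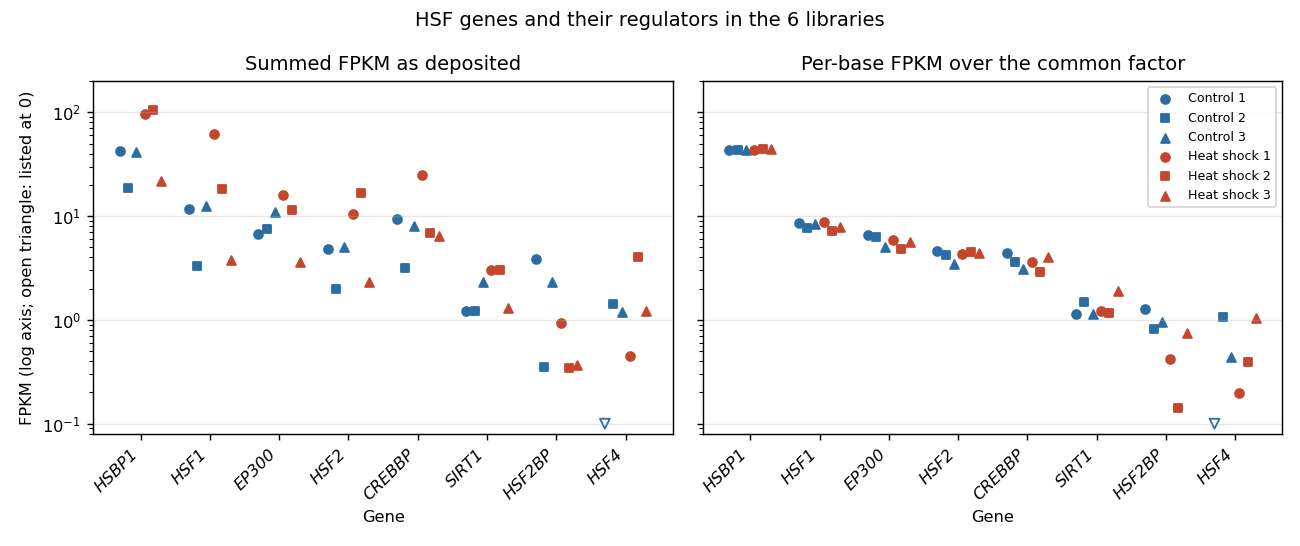
FPKM of each gene (log axis) in the 3 control libraries (blue) and the 3 heat shock libraries (red), with the summed FPKM as deposited on the left and the per-base FPKM over the common factor on the right. On the left heat shock replicates 1 and 2 sit high for HSBP1 (95.4 and 106 FPKM) while heat shock replicate 3 sits with the controls (21.7), and on the right all 6 libraries lie between 43.4 and 44.7. Open triangles mark HSF4 counted at 0 in control replicate 1, where an assembled transcript shared with a neighbouring gene was left out.

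HSF1, the main activator of the heat shock genes (hg19 chr8:145515270-145538385, plus strand, 13 exons), lay on different transcripts in different libraries. Control replicates 1, 2 and 3 gave a summed FPKM of 11.6, 3.29 and 12.4, and heat shock replicates 1, 2 and 3 gave 61.7, 18.3 and 3.79, so that the groups overlapped and heat shock replicate 3 lay within the controls. The log2 fold change was 1.00 with an SE of 0.92 (limma adjusted p = 0.707), and it moved from 0.10 without heat shock replicate 1 to 1.96 without heat shock replicate 3 (limma adjusted p = 0.079). The 61.7 FPKM of heat shock replicate 1 belonged to a single assembled transcript of 2 exons, 705 bases long at the 3′ end, while the full transcript NM_005526 was listed at 0 there. In control replicate 3 NM_005526 was also listed at 0 and the FPKM lay on 2 assembled transcripts of 8 and 6 exons, and in control replicate 1 a single-exon transcript of 14822 bases, mostly intronic, with 246 exonic bases, added 3.80 FPKM to the 7.78 FPKM of NM_005526.

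Counted per base and divided by the common factor, HSF1 was at 8.49, 7.67 and 8.48 in the control libraries. In the heat shock libraries it was at 8.76, 7.23 and 7.80. The control values lay within the range of the heat shock values, and the log2 fold change was -0.05 with an SE of 0.10 and a 95% interval from -0.29 to 0.20 (limma adjusted p = 0.902). A 2-fold change in either direction lay outside this interval, which holds for this scale alone, after division by the common factor. Without that division the per-base log2 fold change was 0.77 with an SE of 0.77 (limma adjusted p = 0.586).

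HSF2, a second heat shock factor that forms mixed trimers with HSF1 (chr6:122720696-122754264, plus strand), was at 4.84, 1.99 and 5.09 summed FPKM in the control libraries and at 10.4, 16.8 and 2.33 in the heat shock libraries. Heat shock replicates 1 and 2 were above every control and heat shock replicate 3 was not, and the log2 fold change was 0.89 with an SE of 0.68 (limma adjusted p = 0.707). It became 0.38 without heat shock replicate 2 and 1.58 without heat shock replicate 3 (limma adjusted p = 0.0756). On the per-base scale its values were 4.63, 4.26 and 3.47 in the controls, against 4.35, 4.54 and 4.43 after heat shock. These overlapped, with a log2 fold change of 0.09, an SE of 0.12 and a 95% interval from -0.20 to 0.39 (limma adjusted p = 0.874). Control replicate 3 was the lowest of the 6 libraries.

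HSF4, a heat shock factor best known from the lens (chr16:67197288-67203848, plus strand), was near the lower limit. Control replicate 1 listed it at 0, control replicates 2 and 3 gave a summed FPKM of 1.41 and 1.18, and the heat shock libraries gave 0.450, 4.06 and 1.22. Its log2 fold change was 0.54, which became 0.14 without control replicate 1 and 0.95 without heat shock replicate 1. Of the 4.06 FPKM in heat shock replicate 2, 3.34 FPKM came from a single-exon piece of 350 bases whose Cufflinks 95% interval ran from 0.401 to 6.28. Annotated HSF4 transcripts were listed above 0 in heat shock replicates 1 and 2 alone, at 0.450 and 0.317 FPKM. The gene lies among close neighbours, and assembled transcripts that also covered exons of another gene were not counted to it. The 0 in control replicate 1 rests on this rule, since an uncounted transcript at 1.66 FPKM there covered all 2618 exonic bases of HSF4. An uncounted transcript at 0.955 FPKM in heat shock replicate 3 also covered them, and control replicates 2 and 3 had uncounted ones over part of the exons. As counted, the per-base values of HSF4 stayed at or under 1.08 in all 6 libraries.

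HSBP1, the small protein that binds the trimerization region of HSF1 (chr16:83841508-83846607, plus strand), had the most even values. All of its FPKM lay on 1 annotated transcript of 4 exons in every library, so that nothing depended on assembled pieces. As deposited it had 42.2, 18.6 and 41.4 FPKM in the control libraries, against 95.4, 106 and 21.7 FPKM in the heat shock libraries, close to the pattern of the common factor, to which HSBP1 itself contributed, and the log2 fold change was 0.90 with an SE of 0.94 (limma adjusted p = 0.707). Leaving out heat shock replicate 2 gave 0.50 and leaving out heat shock replicate 3 gave 1.62 (limma adjusted p = 0.0762). Divided by the common factor, the per-base values were 43.7, 43.4 and 43.7 in the controls and 43.6, 44.2 and 44.7 in the heat shock libraries. The log2 fold change was 0.02 with an SE of 0.050 and a 95% interval from -0.10 to 0.14 (limma adjusted p = 0.919), the narrowest interval of the 6 genes tested on this scale.

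HSF2BP, a protein that binds HSF2 and is known from meiotic recombination (chr21:44949072-45079374, minus strand), was the 1 gene of the 8 with a negative fold change on the deposited scale. It was at 3.84, 0.350 and 2.31 summed FPKM in the controls and at 0.928, 0.341 and 0.366 after heat shock, and the groups overlapped (log2 fold change -0.87, SE 0.55, limma adjusted p = 0.707; -1.39 without control replicate 2). Its annotated transcript alone was at 0, 0.350 and 0.346 FPKM in the controls and at 0.928, 0.341 and 0.366 after heat shock, so the higher control values lay on assembled pieces of 782 and 829 bases and on a transcript of 2964 bases. After division of the summed FPKM by the common factor it was at 4.10, 0.805 and 2.41 in the controls and at 0.436, 0.147 and 0.752 after heat shock, where the groups no longer overlapped (log2 fold change -1.15, limma unadjusted p = 0.053, adjusted p = 0.907). On that scale 5.25% of the 14006 genes tested were lower with no overlap, and the 2 nearest libraries, control replicate 2 and heat shock replicate 3, differed by less than 0.1. The per-base values also did not overlap (0.816 to 1.27 in the controls, 0.143 to 0.755 after heat shock), but their mean was under the minimum of 1 and they were not tested.

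SIRT1, the deacetylase that acts on HSF1 (chr10:69644427-69678147, plus strand), was listed at 1.22, 1.23 and 2.30 summed FPKM in the controls and at 3.03, 3.0 and 1.30 after heat shock. The groups overlapped because of heat shock replicate 3 (log2 fold change 0.39, SE 0.46, limma adjusted p = 0.707), and without that library the log2 fold change was 0.66. Its per-base values over the common factor were 1.14, 1.49 and 1.15 in the controls, against 1.21, 1.16 and 1.91 after heat shock. Here heat shock replicate 3 was the highest library and the other 2 heat shock libraries lay within the controls, and the log2 fold change was 0.09 with a 95% interval from -0.44 to 0.62 (limma adjusted p = 0.909).

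EP300, the acetyltransferase p300 (chr22:41488614-41576081, plus strand, 31 exons), was at 6.68, 7.53 and 11.1 summed FPKM in the controls and at 16.1, 11.4 and 3.62 after heat shock. The heat shock libraries held both the highest and the lowest value (log2 fold change 0.10, SE 0.69, limma adjusted p = 0.934), and leaving out 1 library moved the log2 fold change from -0.29 (heat shock replicate 1) to 0.66 (heat shock replicate 3). Its annotated transcript NM_001429 was listed at 0 in all 3 control libraries and at 4.29, 11.4 and 0.420 FPKM in the heat shock libraries. The control libraries carried the gene on assembled transcripts of up to 30 exons instead, so a comparison of the annotated transcript alone would set values against 0 for a gene that was present. On the per-base scale EP300 was at 6.52, 6.24 and 5.06 in the controls and at 5.84, 4.79 and 5.67 after heat shock, with a log2 fold change of -0.11, an SE of 0.13 and a 95% interval from -0.42 to 0.21 (limma adjusted p = 0.874).

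CREBBP, the closest relative of EP300 (chr16:3775056-3930121, minus strand), was at 9.36, 3.20 and 8.08 summed FPKM in the controls and at 24.7, 6.92 and 6.37 after heat shock. Only heat shock replicate 1 lay above the controls, and 15.6 of its 24.7 FPKM came from an assembled transcript of 7 exons at the 5′ end (log2 fold change 0.64, SE 0.71, limma adjusted p = 0.707). Without that library the log2 fold change was 0.06, and without control replicate 2 it was 0.24. On the per-base scale over the common factor, CREBBP was at 4.46, 3.59 and 3.09 in the controls and at 3.61, 2.90 and 4.06 after heat shock. CREBBP had a log2 fold change of -0.06 there (SE 0.16, 95% interval from -0.46 to 0.35, limma adjusted p = 0.928). Its signal was uneven along the exons: the first 20% of the exonic bases carried 3.62, 1.54 and 2.03 times the mean level of the last 50% in the control libraries and 4.17, 1.00 and 2.05 times in the heat shock libraries. This unevenness, looked at after the values had been seen, did not separate the groups (exact permutation test on log2 ratios, two-sided, p = 1.0). The FPKM of each transcript was spread evenly over its exons, so the ratios reflect how each library was assembled. In heat shock replicate 2 all of the FPKM lay on NM_004380, which fixes the ratio at 1.00. The test therefore cannot compare read coverage along the gene.

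**Figure D2:**
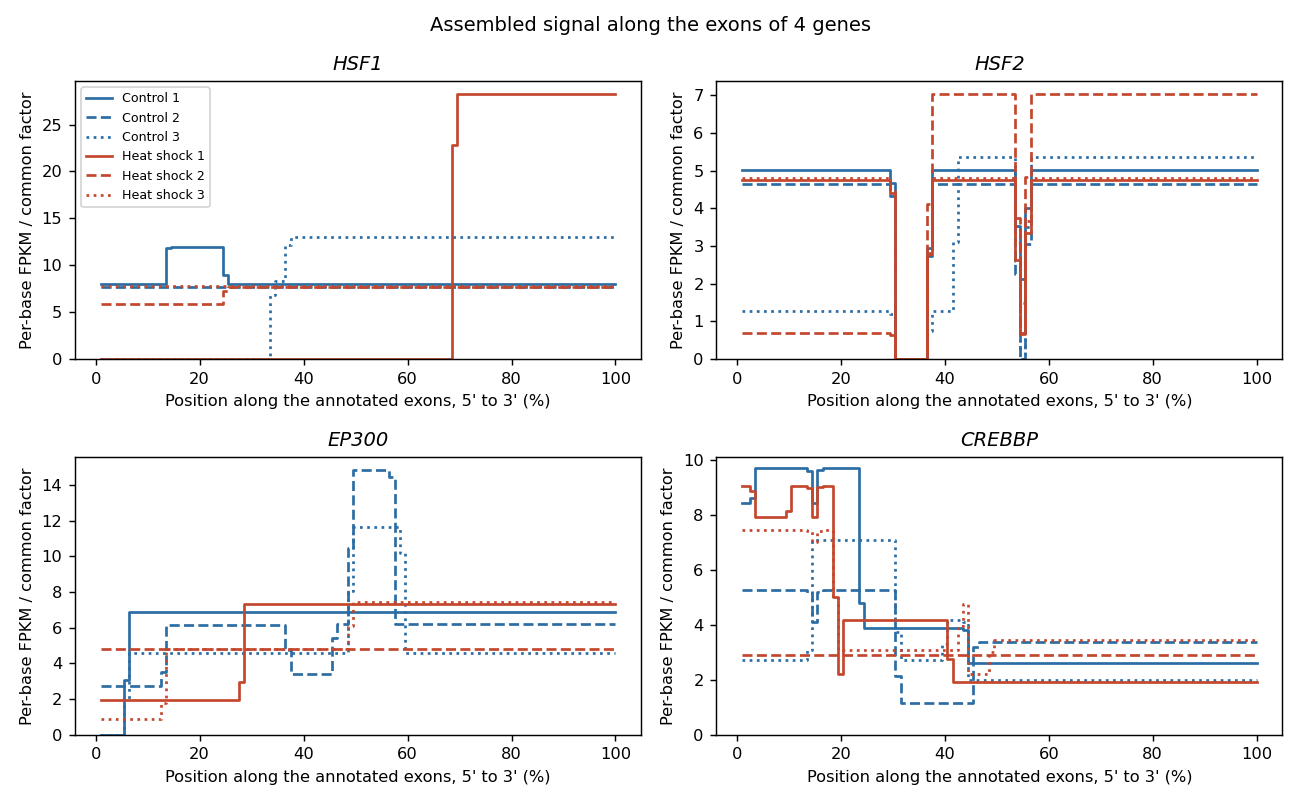
Per-base FPKM over the common factor along the annotated exons of HSF1, HSF2, EP300 and CREBBP from 5′ to 3′, with controls in blue and heat shock libraries in red, solid for replicate 1, dashed for replicate 2 and dotted for replicate 3. HSF1 in heat shock replicate 1 is at 0 over the first part of the gene and high over the 3′ part, where a single transcript of 705 bases was listed, and CREBBP is higher over its first 20% than over its last 50% in 5 of the 6 libraries.

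Ratios between genes of the same library were compared because a factor common to all genes of a library drops out of them. On the summed FPKM the log2 ratio of HSF2 to HSF1 was -1.26, -0.72 and -1.28 in the controls, against -2.57, -0.13 and -0.70 after heat shock, a difference of group means of -0.05. The ratio of HSBP1 to HSF1 differed by -0.15, that of SIRT1 to HSF1 by -0.47 and that of EP300 to CREBBP by -0.64. The 2-sided exact permutation p-values were 1.0, 1.0, 0.6 and 0.4, all 1.0 after adjustment over the 4 ratios, in a design whose smallest possible p is 0.1. These p-values cannot pass the threshold at this sample size and do not show that the ratios were equal.

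On the per-base FPKM the same ratios were much tighter within the groups. HSBP1 stood at 4.98 to 6.12 times HSF1 over the 6 libraries, HSF2 at 0.409 to 0.628 times HSF1, SIRT1 at 0.134 to 0.245 times HSF1 and EP300 at 1.40 to 1.74 times CREBBP. The differences of the group means of the log2 ratios were 0.07, 0.17, 0.21 and -0.05, and the exact permutation p-values were 0.6, 0.4, 0.5 and 0.6, all 0.6 after adjustment over the 4. Of these differences 3 of the 4 had the opposite sign to those on the summed FPKM.

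**Figure D3:**
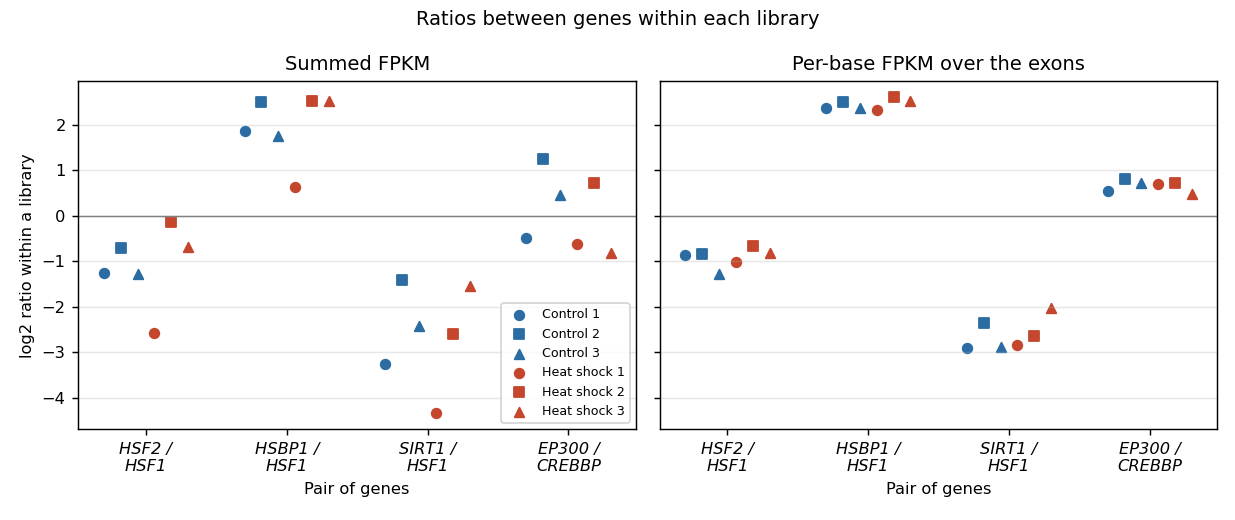
Log2 ratio of 1 gene to another within each library for 4 pairs, from the summed FPKM on the left and the per-base FPKM on the right, with controls in blue and heat shock libraries in red. The HSBP1 to HSF1 ratio spreads from 0.63 to 2.53 on the left and from 2.32 to 2.61 on the right.

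The per-base scale also orders the genes by level, and the order and its test hold for this scale alone. As means of the summed FPKM, CREBBP (9.77) was above EP300 (9.40) and HSF2 (6.90), and CREBBP exceeded HSF2 in 5 of 6 libraries, the exception being heat shock replicate 2 (6.92 against 16.8). HSBP1 was highest with a mean of 43.9 over the 6 libraries, followed by HSF1 (8.07), EP300 (5.69), HSF2 (4.28), CREBBP (3.62), SIRT1 (1.34), HSF2BP (0.727) and HSF4 (0.525). Each of the first 5 neighbouring pairs kept its order in 6 of 6 libraries (exact sign-flip test over the 6 libraries, 2-sided, p = 0.0312, the smallest it allows, adjusted p = 0.0437 over 7 pairs). The pairs were set by the means of these same 6 libraries, controls and heat shock together. The p-values therefore describe the order and are no independent test of it. SIRT1 was above HSF2BP in 5 of 6 libraries (exact adjusted p = 0.0729), and HSF2BP was above HSF4 in 3 of 6 (exact adjusted p = 0.625), so the order of the last 3 genes was not resolved. HSF2 and CREBBP overlapped in range, from 3.47 to 4.63 and from 2.90 to 4.46, although HSF2 was higher within each library.

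Transcript forms differed between libraries without separating the groups. HSF2 has a longer form, NM_004506 with 13 exons, and a shorter form, NM_001135564, which lacks 1 internal exon. The exon is shown because it is the only exonic sequence that tells the 2 forms apart, and it is printed here in the direction of the transcript (GRCh37, the same coordinates as hg19).
HSF2 exon of 54 bases, chr6:122749048-122749101, plus strand: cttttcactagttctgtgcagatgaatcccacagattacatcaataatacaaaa
The longer form held 42.5%, 0% and 0% of the annotated HSF2 FPKM in the controls, against 14.1%, 100% and 30.8% after heat shock. The means were 14.2% and 48.3%, with an exact permutation p of 0.3, and without heat shock replicate 2 the difference fell to 8.28 percentage points. In that library most of the HSF2 FPKM (15.1 of 16.8) lay on an assembled transcript that the share leaves out, and in heat shock replicate 1 the interval of the longer form ran from 0 to 7.67 FPKM. The remaining annotated form, NM_001243094, was listed at 0 in all 6 libraries.

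CREBBP likewise has 2 annotated forms, which differ by 1 exon and are shown for the same reason.
CREBBP exon of 114 bases, chr16:3841982-3842095, minus strand: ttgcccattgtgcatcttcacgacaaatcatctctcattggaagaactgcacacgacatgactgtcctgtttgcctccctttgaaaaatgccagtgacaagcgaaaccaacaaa
The form with this exon, NM_004380, held 100% of the annotated FPKM in control replicates 1 and 3 and in heat shock replicates 1 and 2, and 0% in control replicate 2 and heat shock replicate 3, where NM_001079846 held all of it. The 2 libraries with the shorter form are those with the lowest common factors, 1 in each group, and the group means were the same. These shares cover annotated FPKM alone. The annotated form listed above 0 held 26.9%, 15.5% and 6.34% of the summed CREBBP FPKM in the controls. After heat shock it held 6.99%, 100% and 3.28%, and the rest lay on assembled transcripts. SIRT1 showed a similar split, in which NM_012238 held all of the annotated FPKM in control replicate 1 and heat shock replicate 2, 77.6% in heat shock replicate 1 and none in the other 2 controls, and both forms were listed at 0 in heat shock replicate 3. The SIRT1 shares also leave out assembled transcripts, which carried FPKM in every library.

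Single-exon transcripts without a strand were also assembled inside these genes. Summed over the 8 genes there were 19, 28 and 15 of them in the controls, against 6, 10 and 25 after heat shock, again with heat shock replicate 3 among the controls. HSF1 held 0, 1 and 12 in the controls, against 5, 5 and 2 after heat shock, and their mean FPKM per base of the gene was highest in heat shock replicate 3 (2.34) and control replicate 3 (2.06). The 0 of control replicate 1 leaves out a single-exon transcript inside HSF1, of 14822 bases at 3.80 FPKM, because it was given the plus strand. Control replicate 1 was therefore not free of such RNA. The order of the mean FPKM per base holds only for transcripts without a strand, since counting this one would put control replicate 1 highest. HSBP1 and SIRT1 held none in any library. Without a strand, such RNA cannot be assigned to the gene or to its opposite strand.

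The RNA of HSF1 targets was compared next, as the known output of HSF1. DNAJB1, an HSP40 co-chaperone, had the highest fold change of the 12, with per-base values of 7.33, 9.64 and 9.25 in the controls, against 34.7, 31.9 and 70.0 after heat shock. Every heat shock library lay above every control, and the log2 fold change was 2.17 with an SE of 0.31 and a 95% interval from 1.42 to 2.93. HSPA1B, a stress-inducible HSP70, was at 10.5, 15.3 and 10.0 in the controls and at 39.5, 37.9 and 47.1 after heat shock (log2 fold change 1.73, SE 0.17). HSPA1A was at 5.17, 7.92 and 5.08 and at 13.7, 13.1 and 14.2 (log2 fold change 1.08, SE 0.17). Their reads cannot be cleanly divided, since the 2 genes are near-identical copies, and their sum was at 15.7, 23.3 and 15.1 in the controls and at 53.2, 51.1 and 61.3 after heat shock.

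None of these passed the adjusted threshold: the limma adjusted p was 0.256 for HSPA1B, 0.707 for DNAJB1 and 0.872 for HSPA1A, with unadjusted p of 6.5e-05, 0.00042 and 0.00065. Of the 12 targets 11 were tested on the per-base scale and 0 were called, 11 had a log2 fold change above 0, and 5 were higher with no overlap between the groups, where 1.45% of all genes were. The other 2 of the 5 were HSPA8, the constitutive HSC70, at 92.0, 93.4 and 87.1 against 108, 116 and 112, and DNAJA1, another HSP40, at 45.9, 39.7 and 47.8 against 56.4, 52.7 and 53.2. The median log2 fold change of the 11 was 0.30, beside -0.14 over all genes and -0.01 over the 6 HSF genes and regulators. HSPA6, which many resting cells hardly express, was under the minimum, with values from 0.140 to 1.46. The target list had been used on these data before, and its direction is not independent evidence.

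**Figure D4:**
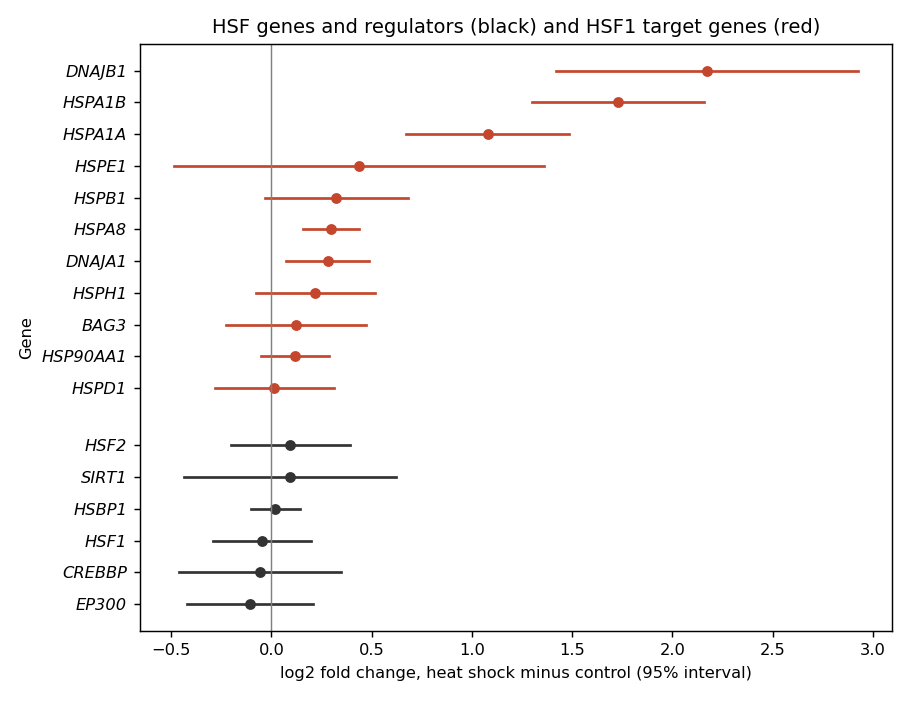
Log2 fold change of heat shock over control on the per-base FPKM over the common factor with its 95% interval from limma, for the 6 HSF genes and regulators tested (black) and the 11 HSF1 targets tested (red). The black points lie between -0.11 and 0.09 with intervals that include 0, and DNAJB1, HSPA1B, HSPA1A, HSPA8 and DNAJA1 have intervals above 0.

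The wider HSF1 pathway was described from 5 lists with 82 genes in all, of which the chaperone list shares DNAJB1, HSPA1A, HSPA1B, HSPA8 and HSP90AA1 with the targets. On the per-base scale 74 were tested, 0 were called, 30 had a log2 fold change above 0, 6 were higher with no overlap, where 1.45% of all genes were, and 5 were lower with no overlap, where 5.4% of all genes were. Of the 6 higher genes 5 are in the chaperone list, and the 5 lower genes are a share near that of all genes and are not read as a result about the lists. Their median was -0.03, and over all genes 2848 of 11862 were above 0. On the deposited scale 76 were tested, 0 were called and 3 were higher with no overlap, namely DNAJB1, HSPA1A and HSPA1B, a share near the 3.77% of all genes.

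Among the 20 kinase and phosphatase genes, 19 were tested, 1 was lower with no overlap, near the 5.4% of all genes, and the median was -0.09. AKT1, a kinase known to phosphorylate HSF1, was at 9.19, 9.77 and 7.48 in the controls and at 6.98, 11.6 and 9.58 after heat shock. The gene without overlap was PLK1, a mitotic kinase that also phosphorylates HSF1, at 12.5, 12.6 and 12.8 against 11.4, 9.89 and 11.5, a log2 difference of -0.19 with a limma adjusted p of 0.874, while its log2 fold change as deposited was 1.33.

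For the 14 chaperone genes 13 were tested, with 5 higher and 1 lower without overlap, beside 1.45% and 5.4% of all genes, and a median of 0.09. Of the 5 higher genes 4 are also in the target list. HSP90AB1, the constitutive cytosolic HSP90 that holds HSF1 inactive, was at 185, 182 and 181 in the controls and at 195, 192 and 197 after heat shock, a log2 difference of 0.09. PTGES3, the HSP90 co-chaperone p23, was the lower gene and is named after its values were seen, with group means of 36.3 in the controls against 33.8 after heat shock on this scale and a log2 fold change of 0.72 as deposited. TCP1, a subunit of the TRiC chaperonin, was at 52.1, 52.0 and 48.1 and at 52.3, 51.3 and 52.1, and the groups overlapped.

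Among the 18 genes of SUMO, ubiquitin and deacetylation, 16 were tested and 1 was higher with no overlap, beside 1.45% of all genes. That gene was SUMO3, which codes for a small modifier joined to HSF1 after its phosphorylation, at 23.1, 24.2 and 23.6 in the controls, against 26.2, 26.0 and 26.4 after heat shock (log2 fold change 0.14, SE 0.057, limma adjusted p = 0.874). SUMO2, its near-identical paralog in protein, was at 78.0, 78.0 and 64.8 and at 71.7, 72.0 and 76.4, with overlap.

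The 20 coactivator and partner genes had 17 tested and 2 lower with no overlap, beside 5.4% of all genes. SSBP1, which binds single-stranded DNA in mitochondria and is reported to join HSF1 at promoters, was at 114, 111 and 113 in the controls and at 115, 116 and 109 after heat shock. The 2 lower genes fell outside the rule for naming genes and are named after their values were seen. TPR, a nuclear pore protein, was at 10.9, 7.94 and 9.87 in the controls and at 2.28, 3.01 and 4.34 after heat shock (log2 fold change -1.35, SE 0.21, limma adjusted p = 0.872). As deposited, without the common factor, the log2 fold change of TPR was -0.60 with overlap. RPA3, a subunit of replication protein A, was at 18.6, 22.4 and 23.3 and at 13.9, 13.9 and 18.4 (log2 fold change -0.46, SE 0.14, limma adjusted p = 0.874), and its log2 fold change as deposited was 0.36.

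For the 10 genes of SIRT1 regulators and other sirtuins 9 were tested, 1 was lower with no overlap, beside 5.4% of all genes, and the median was -0.09. RPS19BP1, which codes for an activator of SIRT1, was at 72.5, 71.2 and 93.3 in the controls and at 91.5, 89.4 and 84.2 after heat shock, with overlap. USP22, a deubiquitinase of the SAGA complex, was at 47.3, 41.4 and 42.5 and at 41.0, 39.1 and 43.2. The lower gene, SIRT5, is also named after its values were seen and had mean values of 1.34 in the controls against 0.767 after heat shock (limma adjusted p = 0.874).

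The genes whose pattern over the 6 libraries was most like each of the 8 were found by Pearson correlation of log2(FPKM over the common factor + 1), a description over 6 points that share libraries and depth. For HSF1 they were RAP1GDS1 (r = 0.984) and CENPV (r = 0.972), and for HSF2 they were BTF3 and TMEM94 (both r = 0.990). HSBP1 was closest to ASAH2B (r = 0.983) and TPP2 (r = 0.981), and EP300 to SMAD9 (r = 0.994) and ARID4B (r = 0.989). For CREBBP they were PABPN1 (r = 0.987) and BOLA3-DT (r = 0.981), for SIRT1 FNDC1 and LOC100128573 (both r = 0.997), for HSF2BP RASEF (r = 0.997) and UBLCP1 (r = 0.993), and for HSF4 MKS1 (r = 0.992) and IFITM1 (r = 0.991). Each pair is the top 2 of the 13142 genes tested, and over 6 points such a search can give high r without any link. HSBP1 varied only from 42.8 to 45.6 on this scale, so its r rests on small differences.

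The authors' merged table gives 1 pooled FPKM per group without an error, in which HSBP1 was at 44.3 in the control column and 197 in the heat shock column, HSF1 at 8.35 and 38.1, EP300 at 5.75 and 23.7, HSF2 at 4.68 and 22.4, CREBBP at 3.70 and 14.9 and SIRT1 at 1.22 and 5.64. The merged locus of HSF1 runs to chr8:145560182, past the end of the gene at 145538385. HSF2BP was at 1.01 and 1.68, and the locus of HSF4, which also holds FBXL8 and NOL3, was at 5.03 and 8.97. These pooled values of the heat shock column lie above every heat shock library's summed FPKM for HSBP1, EP300, HSF2, SIRT1 and HSF2BP, and how the table was scaled is not given in the sources used here.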

How the data were processed

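RNA was sequenced from 3 control and 3 heat shock libraries of HEK293 cells (RiboMinus depletion, TruSeq kit). The members and gene lists were chosen with earlier results of these data known. Per the labels and the study's methods, the authors used FastQC 0.10.1 for read quality, Trimmomatic 0.3.0 for trimming, TopHat2 for alignment (build hg19) and Cufflinks 2.0.2 for the assembly of each library, and deposited its FPKM values; they also deposited a merged Cuffdiff table, of which only the 2 pooled FPKM columns were used (its fold changes, p-values and calls were not). No read counts were used, and strand is as Cufflinks assigned it.

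A gene's FPKM was the sum over its annotated transcripts and over assembled transcripts of its group; in a group of several genes an assembled transcript counted for the only gene whose exons it overlapped on the same strand, or for none. Of 43536 annotated transcripts, 96.5% were named by RefSeq accession, 614 by gene name, and 903 kept the accession. Genes averaging 1 FPKM or more entered limma 3.58.1 (R 4.3.3; lmFit, eBayes with trend) on log2(FPKM + 1), which understates changes of low genes, and adjusted by Benjamini-Hochberg; a call needed an adjusted p under 0.05 and more than 2-fold. Ratios and shares were compared by exact permutation (Python 3.11.15, numpy 2.4.6). The tests were checked on simulated data. Named genes were the 8 members, the targets, called genes and otherwise the 4 of highest mean FPKM in each other list, and the 2 genes most correlated with each member. Alternatives were a pseudocount of 0.1, median-of-ratios and common factors, TPM, no minimum or a minimum of 10, no trend, annotated transcripts alone, the replicate block, and leaving out each library. Per-base FPKM, with its own common factor, and leaving out shared groups were added after the values were seen. Cufflinks intervals cover fragment counting and assignment, not the spread between libraries; depth in fragments is unknown.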

Additional observations from a re-analysis of the deposited data

How the results depend on the processing

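The count of called HSF genes and regulators stayed at 0 in every alternative run. The count over all genes, 3 as deposited, became 0 with the common factor, without a minimum FPKM and on the per-base FPKM with its common factor, 1 with TPM, without the trend and with annotated transcripts alone, 489 with unadjusted p, and 5 to 12 when 1 library was left out. With unadjusted p, 3 targets and 3 other pathway genes passed. Replicate numbers did not pair the libraries (correlations of deviations 0.057, -0.257 and -0.113); the replicate block gave 16 calls over all genes, 0 with the common factor and 0 on the per-base scale, and no HSF gene among them.

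Fold changes that turned direction were those of HSF1, SIRT1, CREBBP and EP300. HSF1 was at -0.047 per base with the common factor, with or without the block. SIRT1 was at -0.19 with the common factor, with or without the block, and at -0.094 with TPM. CREBBP was at -0.10 with the common factor and at -0.057 per base with its common factor, each with or without the block. EP300 was at -0.32 with median-of-ratios factors, -0.56 with TPM and -0.46 with shared groups left out. With the common factor EP300 was at -0.71, and per base with its common factor at -0.11, each with or without the block. Per base without a common factor, the 6 genes tested all stayed above 0, from 0.63 to 0.90. Without 1 library EP300 ranged from -0.29 to 0.66. HSBP1, HSF2 and HSF4 stayed above 0 and HSF2BP below 0 wherever they were tested. Among the within-library log2 ratios, leaving out 1 library moved HSF2 to HSF1 from -0.55 to 0.67, HSBP1 to HSF1 from -0.46 to 0.49 and SIRT1 to HSF1 from -1.11 to 0.29, and the per-base values were 0.17, 0.074 and 0.21. The sign turned without control replicate 2 (0.14, 0.09 and 0.0052) and without heat shock replicate 1 (0.67, 0.49 and 0.29), the library with HSF1 on 1 short transcript. Apart from the choice of libraries, the cause of these turns was not tested. The unknown depth in fragments and the 3 libraries per group limit all of these values.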
